A study of Mus musculus with 3 samples.

Results

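Prostaglandins are signalling lipids made from arachidonic acid, and 8 genes that make, break down or sense them were followed here through the cells of the mouse prostate. The 8 were taken by gene symbol from the 32594 genes of each deposited matrix and all 8 were found: Ptgs1, Ptgs2, Ptgds, Ptges, Ptgis, Hpgd, Hpgds and Ptger4. Cells of whole prostates of intact C57BL6 mice were sequenced singly in droplets (10x Genomics): 1 library came from Srd5a2 knockouts and 2 came from Srd5a2 heterozygotes. Srd5a2 encodes steroid 5-alpha-reductase type 2, the enzyme by which the prostate converts testosterone to the more potent dihydrotestosterone. The question put by the design is what differs in the prostate that lacks the enzyme.

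The labels give an age of 12 to 15 weeks for all 3 libraries, and the protocol gives 12 weeks. All 3 suspensions were made in the same way, by digestion in collagenase I with rock inhibitor, DNase I and 1 nmol dihydrotestosterone for 2 h at 37 °C and then TrypLE for 10 min, so cells of both genotypes were exposed to dihydrotestosterone before capture. The labels give no other treatment. No wild-type library was analysed here. No source used here states the extent of the deletion or how many animals went into a library. The p-values rest on the spread between these libraries only, and that spread is drawn largely from all genes together, not from each gene alone.

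Cyclooxygenases (Ptgs1 and Ptgs2) turn arachidonic acid into prostaglandin H2, and terminal synthases turn that into the single prostaglandins. Ptgds and Hpgds make prostaglandin D2, Ptges makes prostaglandin E2 and Ptgis makes prostacyclin. Hpgd oxidises and thereby inactivates prostaglandins, and Ptger4 encodes EP4, a receptor for prostaglandin E2. Seminal fluid is rich in prostaglandins, which in humans come mainly from the seminal vesicle.

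Promoter sequences are shown for the 5 genes whose level differed between the genotypes in at least 1 of the cell classes tested below, so that the differences can be read beside the DNA next to each start site. Each runs 5′ to 3′ on the strand of its gene and ends at the base before the RefSeq start, except that Ptgds stops after 157 bases, where an exon annotated by GENCODE begins. Coordinates are GRCm38.p6, the build also called mm10: Ptgds at chr2:25469843-25469999 (minus strand), Ptgs2 at chr1:150099781-150100030 (plus), Hpgd at chr8:56294302-56294551 (plus), Ptgs1 at chr2:36230176-36230425 (plus) and Ptges at chr2:30903298-30903547 (minus, inside the longer GENCODE gene but in none of its exons). Capitals mark motif matches on either strand: the GC box in Ptgs2, Hpgd and Ptges, and the androgen response half-site in Ptgs1 and Ptges. Ptgds holds none of the motifs searched.
Ptgds: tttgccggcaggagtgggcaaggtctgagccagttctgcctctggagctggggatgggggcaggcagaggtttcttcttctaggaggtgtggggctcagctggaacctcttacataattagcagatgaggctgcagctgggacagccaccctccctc
Ptgs2: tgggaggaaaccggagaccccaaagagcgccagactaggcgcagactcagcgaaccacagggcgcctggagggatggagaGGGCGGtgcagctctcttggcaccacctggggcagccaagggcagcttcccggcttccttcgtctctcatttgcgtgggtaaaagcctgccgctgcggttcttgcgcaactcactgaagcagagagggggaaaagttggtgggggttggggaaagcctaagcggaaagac
Hpgd: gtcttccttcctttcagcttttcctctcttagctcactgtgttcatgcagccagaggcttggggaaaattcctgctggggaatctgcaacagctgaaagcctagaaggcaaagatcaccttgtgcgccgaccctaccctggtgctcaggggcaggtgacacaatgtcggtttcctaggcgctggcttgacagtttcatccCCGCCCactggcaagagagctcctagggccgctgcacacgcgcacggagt
Ptgs1: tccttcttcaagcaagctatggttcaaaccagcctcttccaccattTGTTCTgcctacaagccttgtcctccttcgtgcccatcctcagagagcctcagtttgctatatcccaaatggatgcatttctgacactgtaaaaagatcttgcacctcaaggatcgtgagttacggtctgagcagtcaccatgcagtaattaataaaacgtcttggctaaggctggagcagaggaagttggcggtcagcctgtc
Ptges: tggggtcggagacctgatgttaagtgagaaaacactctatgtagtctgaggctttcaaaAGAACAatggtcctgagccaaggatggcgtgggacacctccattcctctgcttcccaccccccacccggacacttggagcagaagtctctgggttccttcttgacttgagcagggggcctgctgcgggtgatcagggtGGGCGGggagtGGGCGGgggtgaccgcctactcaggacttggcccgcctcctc

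The motifs were searched on both strands of the whole 250 bases before the start, also where fewer are printed, in the 7 genes that have a RefSeq entry and in 32536 mouse promoters. The androgen half-site AGAACA was found in 2 of the 7 (Ptgs1, on the opposite strand, and Ptges) and in 16.0% of all promoters. The GC box GGGCGG was found in 4 of the 7 (Ptgs2, Ptges, Hpgd and Ptger4) and in 33.0% of all promoters, and the NF-Y letters CCAAT in 1 (Ptger4) against 33.8%. No match in these windows was found for TATAAA (12.3% of all promoters), the half-site AGGTCA (14.04%), the E-box CACGTG (6.04%) or the cAMP response element TGACGTCA (1.56%) with its half-site TGACG (17.9%), which overlaps it. These are matches of letters and no measure of binding. By GENCODE vM21 on mm10 the genes themselves lie at chr2:36230426-36252272 (Ptgs1), chr1:150100031-150108227 (Ptgs2), chr2:25466709-25470046 (Ptgds), chr2:30889471-30929863 (Ptges), chr2:167191805-167240604 (Ptgis), chr8:56294585-56321043 (Hpgd), chr6:65117293-65144908 (Hpgds) and chr15:5206661-5244187 (Ptger4).

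After filtering, 8846 knockout cells and 4502 and 9315 heterozygote cells remained, and a median cell had 4253, 6872 and 4423 transcripts counted by unique molecular identifier (UMI). They fell into 30 clusters and 12 marker-defined classes, whose names mean cells like that type, while 7 clusters stayed unnamed and are called by number and leading genes. Levels are in CPM, the UMIs of a gene scaled to the same total for every class or cluster and library, and are set side by side for 1 gene at a time. Srd5a2 itself had 12 UMIs in all knockout cells, against 139 and 151 in heterozygotes 1 and 2. Its main sites in the heterozygotes were fibroblasts, with 0.705 CPM in the knockout, against 133 and 113, smooth muscle, with 0.841, against 90.3 and 54.1, and unnamed cluster 10, with 1.64, against 84.0 and 54.9. Heterozygote 1 was deposited without shallow barcodes (lowest total 2466 UMIs, against 586 in the knockout and 500 in heterozygote 2). The libraries share 57 barcodes at most in a pair. Cell composition differed as well: luminal secretory cells made up 14.01% of knockout cells, against 46.0% and 38.8%, and seminal vesicle-like cells 26.97%, against 7.996% and 8.76%.

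**Figure D1:**
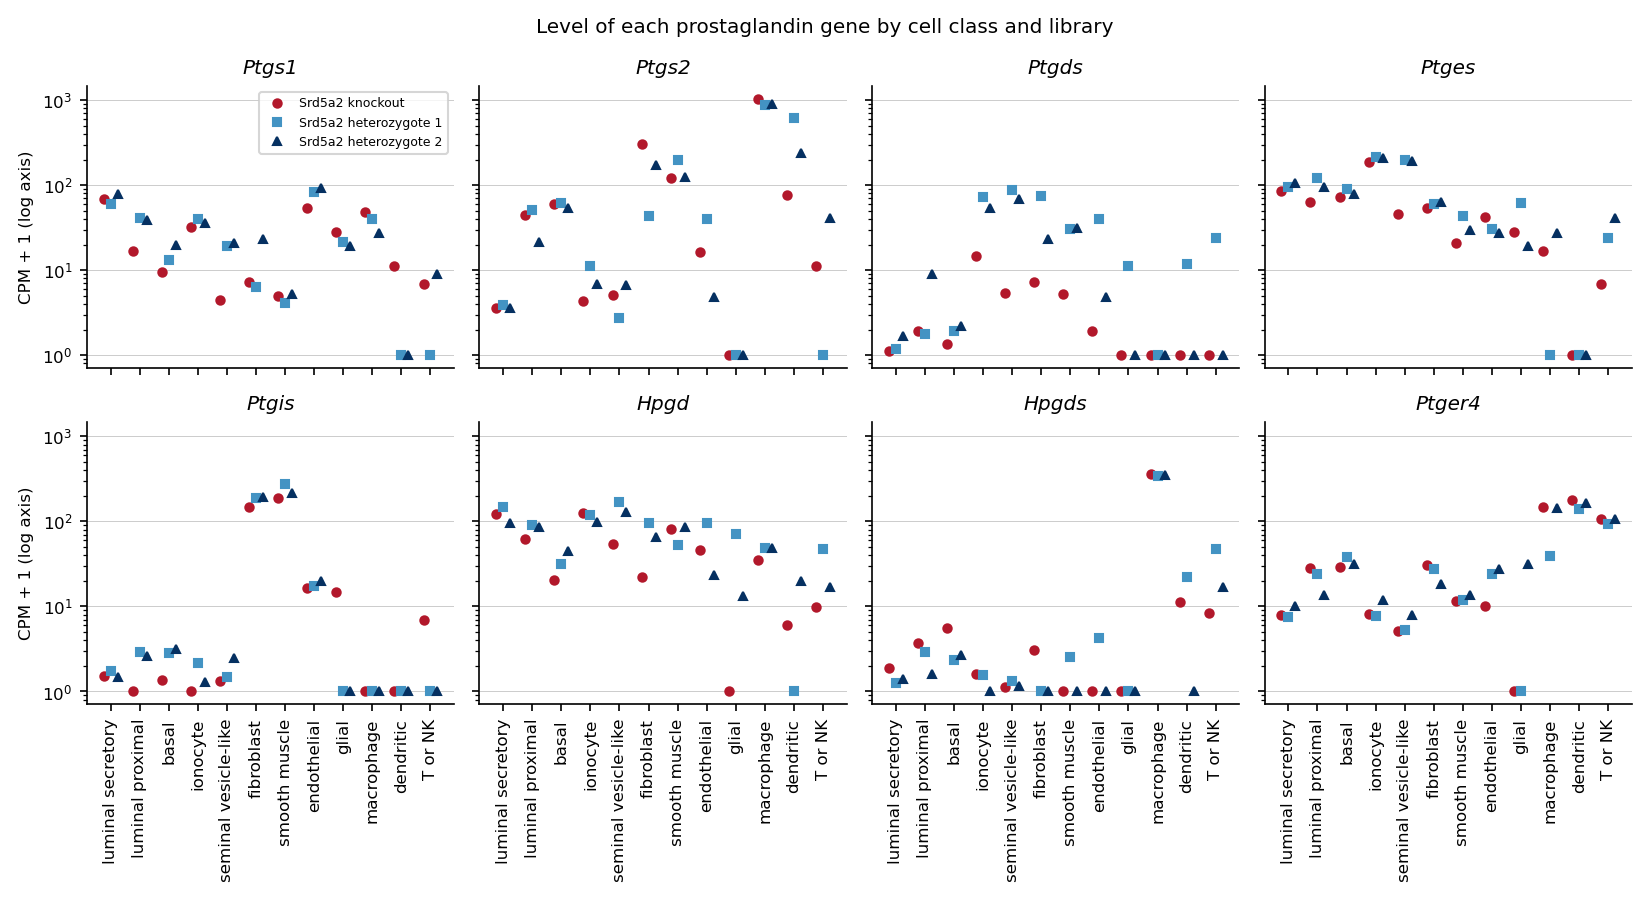
Level of each of the 8 genes (CPM + 1, log axis) in the 12 named cell classes, with 1 point per library (red circles knockout, light squares heterozygote 1, dark triangles heterozygote 2). Ptgis peaks in fibroblasts and smooth muscle and Hpgds in macrophages in all 3 libraries, and Ptgds lies lower in the knockout in seminal vesicle-like cells, ionocytes, fibroblasts and smooth muscle.

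The 8 genes divided among the cells of the gland rather than sharing one site. Epithelium held most UMIs of Ptgs1 (66.4% in luminal secretory cells), Hpgd (48.7%) and Ptges (39.1%) in that same class, and seminal vesicle-like cells held 65.8% of Ptgds. Stroma held Ptgis, with 64.7% in smooth muscle and 19.9% in fibroblasts, and macrophages held 64.3% of Hpgds. These shares also follow how many UMIs a class holds. Knockout, heterozygote 1 and heterozygote 2 cells had 104372868, 43796149 and 76202205 UMIs. Of these, luminal secretory cells held 17861761, 23963695 and 38522394, and seminal vesicle-like cells 57646572, 6352480 and 12009575. By CPM Ptges was higher in ionocytes than in luminal secretory cells in each library. The cells were clustered without these genes, but classes are still groups made from the same cells, so levels across classes are a description with no test.

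The genotypes were compared in the 8 classes with at least 50 cells in every library, by summing UMIs per library and fitting all genes with edgeR's quasi-likelihood test, with Benjamini-Hochberg adjustment over all genes tested and a threshold of 0.05. Ptgds was the gene with the broadest difference. It was lower in the knockout in seminal vesicle-like cells, ionocytes and smooth muscle. Ptgs2 was higher and Hpgd lower in knockout fibroblasts, and Ptgs1 and Ptges were lower in the seminal vesicle-like class. None of the 8 genes, where tested, was called by edgeR in luminal secretory, luminal proximal, basal or endothelial cells. Of all genes tested in these classes 2.09%, 0%, 0.900% and 1.96% were called, in that order. The median log2 fold change of those of the 8 genes tested was -0.11 in luminal secretory cells, against -0.02 over all genes, and -0.20 in fibroblasts, against -0.03. DESeq2, run as an alternative, gave no adjusted p for 1 to 6 of the 8 genes in a class, and these are left out of its counts.

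**Figure D2:**
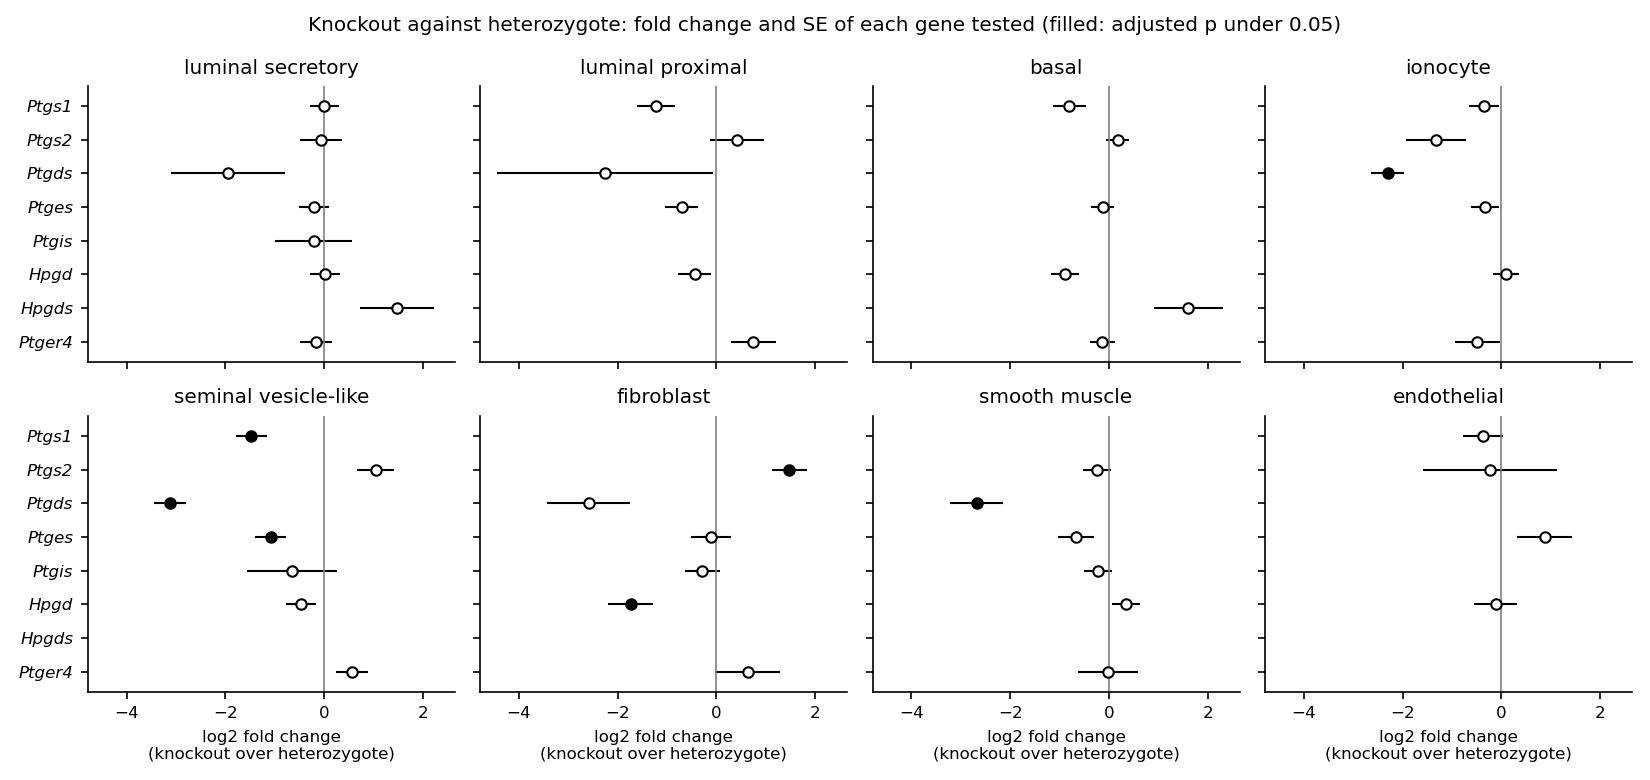
Log2 fold change (knockout over heterozygote) with its SE for each of the 8 genes that passed the filter on low counts, in the 8 classes fitted, with filled points at an adjusted p under 0.05. Ptgds lies left of 0 in each class where it was tested, and is filled in ionocytes, seminal vesicle-like cells and smooth muscle.

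Ptgs1, the cyclooxygenase that most tissues express constantly, was a gene of secretory epithelium and of vessels. Luminal secretory cells had 67.2 CPM in the knockout, against 59.8 and 77.4 in the heterozygotes, so the knockout lay between the heterozygotes. Within that class the gene was uneven. Cluster 3 (Ren1, Lysmd1) had 88.9, against 90.9 and 107.9, and cluster 2 (C1s2, Srpx) had 90.4, against 93.0 and 98.5. Cluster 14 (Msmb, H2-Q10) had 2.83, against 3.46 and 4.80, and cluster 17 (Spink5, Sbp) had 2.41, against 1.61 and 2.82, in every library far below the other luminal clusters. Cluster 17 held 39 knockout cells with 831430 UMIs in all, so its knockout level rests on few Ptgs1 UMIs. Endothelial cells had 53.4, against 81.7 and 90.6, from 59, 25 and 24 UMIs. Smooth muscle, with 3.93 against 3.11 and 4.24, and the lymphocytes of the T or NK class, with 4, 0 and 1 UMIs, were among the lowest.

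The fold change of Ptgs1 in luminal secretory cells was 0.01 ± 0.30 (SE) on the log2 scale, with an adjusted p of 1 by edgeR's quasi-likelihood test. Of the 8 genes tested in this class 0 were called by edgeR, with 0 at an unadjusted p under 0.05 and 0 by DESeq2, while 2.09% of all genes tested there were called. In luminal proximal cells, which carry Krt4 and Psca, Ptgs1 had 15.6 in the knockout, against 39.6 and 37.9, so the lone knockout lay below both heterozygotes. The log2 fold change was -1.23 ± 0.39, with an adjusted p of 0.805 by edgeR. Of 6 genes tested there 0 were called, with 1 at an unadjusted p under 0.05 and 0 by DESeq2, and 0% of all genes tested were called. Proximal cluster 22 held 0 knockout cells, against 25 and 355 heterozygote cells, so this class compares partly different clusters. Within proximal cluster 15, which held all 123 knockout cells, against 326 and 208, the log2 fold change of Ptgs1 was -1.19 ± 0.40. It was -1.10 and -1.19 against heterozygotes 1 and 2 alone, and edgeR did not call it.

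Ptgs2, the inducible cyclooxygenase and an immediate early gene, marked a wider set of cells. Macrophages had 1035 CPM in the knockout, against 870.4 and 909.9, and a Ptgs2 UMI was seen in 64.1%, 58.6% and 55.3% of them. Thinned to 1000 UMIs per cell, the shares were 39.3%, 34.5% and 40.0% (exact Clopper-Pearson 95% intervals 30.4 to 48.8, 17.9 to 54.3 and 29.5 to 51.2), with no cell left out. Luminal secretory cells, thinned likewise, gave 0.728%, 0.434% and 0.772%, and 2, 0 and 112 shallower cells were left out. Median depths were 3791, 3316 and 2527 UMIs in macrophages and 12839, 9897 and 9759 in luminal secretory cells. Macrophages were not fitted, since heterozygote 1 held 29 of them. Dendritic cells, at 30, 26 and 30 cells, were not fitted either. They had 76.4 CPM of Ptgs2 in the knockout, against 612 and 239, from 15, 57 and 25 UMIs, so the knockout lay below both heterozygotes. At 1000 UMIs per cell the shares were 6.67%, 30.8% and 10.0%, with overlapping intervals.

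Among epithelial cells Ptgs2 was concentrated in 2 unnamed clusters. Cluster 10, led by Tmem171, Egfl6 and Clca3a2 and carrying the basal keratins Krt5, Krt14 and Krt17, had 800.5 CPM in the knockout, against 521.7 and 550.6, from 2441, 236 and 271 UMIs. The knockout was higher than both heterozygotes, but the fold change of 0.73 ± 0.27 on the log2 scale had an adjusted p of 0.293 by edgeR. In this cluster 0 of 5 genes tested were called, with 3 at an unadjusted p under 0.05 and 0 by DESeq2, while 0.909% of all genes tested were called. The 3 were Ptgs2, Ptgs1, which was lower (log2 fold change -1.49 ± 0.33), and Ptges, which was higher (1.11 ± 0.25). Cluster 13, led by Sprr2f, Wfdc15b and Folr1, had 312 in the knockout, against 169 and 297, and the difference of 0.40 ± 0.35 had an adjusted p of 0.753. Basal cells proper had 59.5, against 61.3 and 52.2. In the basal class 0 of 6 genes were called, with 3 at an unadjusted p under 0.05 and 0 by DESeq2, while 0.900% of all genes were called.

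Fibroblasts were the only class of the 8 fitted where edgeR called a difference in Ptgs2. In seminal vesicle-like cells the log2 fold change of Ptgs2 was 1.05 ± 0.38, with an adjusted p of 0.0702 by edgeR. The 528 knockout fibroblasts had 434 UMIs, or 306 CPM (exact Poisson 95% interval 278 to 336), against 8 UMIs in 57 cells (42.6 CPM) and 70 UMIs in 214 cells (172 CPM). The knockout was above both heterozygotes, whose own intervals, 18.4 to 83.9 and 134 to 218, did not overlap each other. The log2 fold change was 1.47 ± 0.36, with an adjusted p of 0.00449 by edgeR, and against heterozygote 1 alone it was 2.91 and against heterozygote 2 alone 0.89. The call was lost with DESeq2 (log2 fold change 1.61, adjusted p 0.999) and without the filter on low counts (1.61, 0.850).

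The share of fibroblasts with a Ptgs2 UMI was 26.9% in the knockout, against 8.77% and 9.35%, and at 1000 UMIs per cell it was 15.5% (interval 12.5 to 18.9), against 7.02% (1.95 to 17.004) and 5.39% (2.72 to 9.44), with 7, 0 and 10 shallower cells left out. At that depth the interval of the knockout overlaps that of heterozygote 1. In heterozygote 2 a single cell gave 29 of the 70 UMIs, while in the knockout the top 10 cells gave 29.7%. Other immediate early genes, Fos, Fosb, Jun, Junb, Egr1 and Atf3, together had 8896 CPM in knockout fibroblasts, against 6760.4 and 6731. Each was highest in the knockout except Atf3, which lay between the heterozygotes. These 6 genes were chosen after the values of Ptgs2 were seen, and their part in the difference was not tested.

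Smooth muscle gave no call, at 120.3 CPM in the knockout, against 198 and 124, with a log2 fold change of -0.25 ± 0.28 and an adjusted p of 0.829. Set directly against each other, the knockout effects on Ptgs2 in fibroblasts and in smooth muscle differed by 1.71 ± 0.61, with an adjusted p of 0.896 by edgeR. Of 7 genes tested for that difference 0 were called, with 2 at an unadjusted p under 0.05 and 0 by DESeq2, and 0% of all genes were called.

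**Figure D3:**
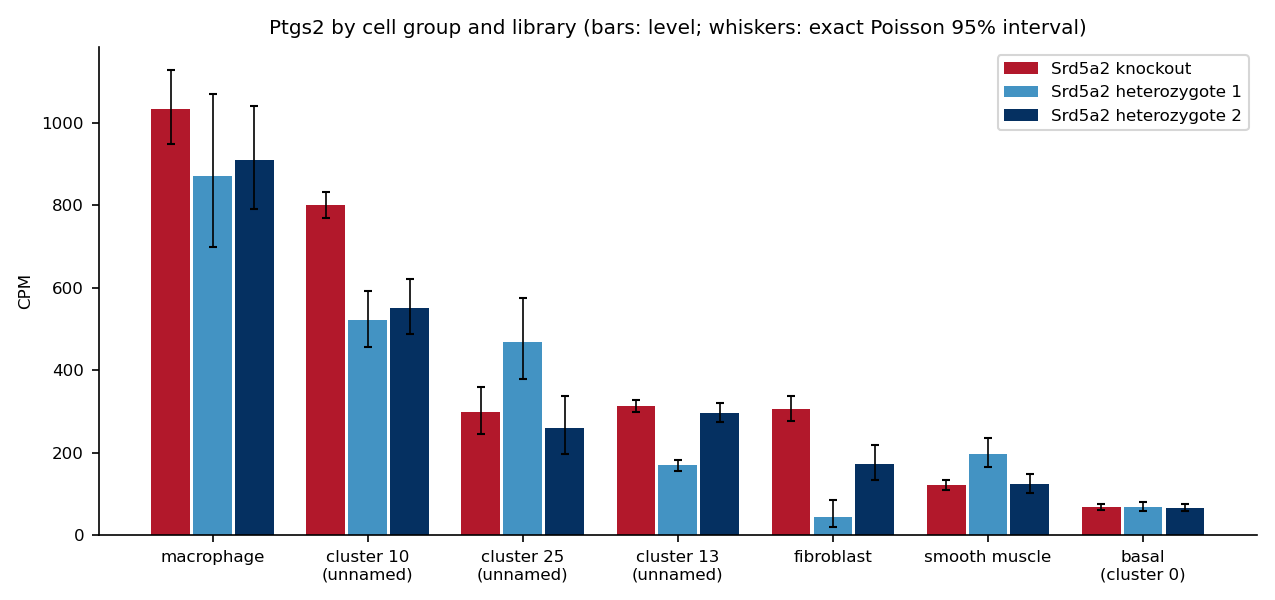
Ptgs2 in CPM by cell group, with a bar per library (knockout, heterozygote 1 and heterozygote 2 from left to right) and exact Poisson 95% intervals, which cover counting error only. Macrophages are high in all 3 libraries, and the knockout bar is above both heterozygote bars in fibroblasts, at 306 against 42.6 and 172, and in cluster 10.

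Ptgds, the lipocalin-type prostaglandin D synthase, was found mainly in seminal vesicle-like cells and in ionocytes, the Foxi1-positive proton-pumping cells. Seminal vesicle-like cells had 4.37 CPM in the knockout, against 86.7 and 67.1, from 252, 551 and 806 UMIs. The knockout was far below both heterozygotes. The log2 fold change was -3.11 ± 0.33, with an adjusted p of 7.21e-10 by edgeR. It is smaller than the ratio of the CPM values, because the TMM scaling factors of this class were 0.623 in the knockout, against 1.24 and 1.29. Of 7 genes tested in this class 3 were called, all lower, while 10.4% of all genes tested were called and 4.86% were lower.

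That class was made of different clusters in the 2 genotypes. In the knockout 36.4% of it was cluster 9, 31.0% cluster 12 (Sva, Ceacam10) and 19.3% cluster 5 (Pate8, Pate4, Elf5), whereas cluster 5 made up 86.9% in heterozygote 1 and 57.6% in heterozygote 2, where cluster 24 made up 30.3%. Cluster 5 has many cells in every library, 461 against 313 and 470, with median depths of 15569, against 12949 and 16640 UMIs, and held most Ptgds UMIs. There Ptgds had 19.1 CPM in the knockout, against 87.3 and 70.6, from 181, 495 and 729 UMIs. The log2 fold change within cluster 5 was -2.09 ± 0.32, with an adjusted p of 3.05e-08 by edgeR and 5.16e-07 by DESeq2, and it was -2.20 and -1.95 against heterozygotes 1 and 2 alone. It was the only one of 6 genes called in that cluster, where 2.40% of all genes were.

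A Ptgds UMI was seen in 23.0% of knockout cells of cluster 5, against 59.7% and 57.4%. Thinned to 1000 UMIs the shares were 2.17% (1.05 to 3.96), against 9.58% (6.56 to 13.4) and 7.76% (5.49 to 10.6), with 1, 0 and 6 shallower cells left out. Basal cells, thinned likewise, gave 0 of 1209 cells, which allows a share of up to 0.248%, against 0 of 622 (up to 0.482%) and 0.145%, at median depths of 3811, against 3188 and 2526 UMIs. Of the 461 knockout cells of cluster 5, against 313 and 470, the top 10 held 23.2% of the Ptgds UMIs, against 21.2% and 15.1%.

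Ionocytes differed in the same direction, at 13.7 CPM in the knockout, against 72.2 and 53.5, from 46, 127 and 194 UMIs. The knockout interval, 10.1 to 18.3, lay below both heterozygote intervals, 60.2 to 85.9 and 46.3 to 61.6. The log2 fold change was -2.30 ± 0.33, with an adjusted p of 3.26e-09 by edgeR and 0.0101 by DESeq2. Ptgds was the 1 gene called of 6 tested, while 1.80% of all genes tested in ionocytes were called. Without the filter on low counts the log2 fold change was -2.27 with an adjusted p of 0.788, and with cells assigned one by one from markers it was -1.43 with an adjusted p of 0.169. The seminal vesicle secretory (Svs) genes took 31.0% of ionocyte UMIs in the knockout, against 37.9% and 38.3%, and their part in the Ptgds level was not tested.

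Smooth muscle had 4.21 Ptgds CPM in the knockout, against 29.6 and 30.7, from 15, 19 and 29 UMIs. The heterozygotes lay close together and the knockout below both. The log2 fold change was -2.68 ± 0.53, with an adjusted p of 6.03e-05 by edgeR. It was the 1 gene called of 6 tested, where 3.44% of all genes were called, and DESeq2 gave it no adjusted p. Svs genes took 3.06% of smooth muscle UMIs in the knockout, against 0.311% and 0.758%. Fibroblasts had 6.34, against 74.5 and 22.2, from 9, 14 and 9 UMIs, and their log2 fold change of -2.59 ± 0.83 had an adjusted p of 0.0975. Svs genes took 5.76% of fibroblast UMIs in the knockout, against 5.62% and 1.70%, so heterozygote 1 was above heterozygote 2 in both Svs genes and Ptgds. The same held in endothelial cells, with 16.6% of UMIs from Svs genes in the knockout, against 9.11% and 2.07%, and 0.905 Ptgds CPM, against 39.2 and 3.77, from 1, 12 and 1 UMIs. The part of this RNA in the Ptgds levels of smooth muscle, fibroblasts and endothelial cells was not tested.

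Cluster 13 had 6 Ptgds UMIs (1.07 CPM) in the knockout, against 84 (21.5) and 61 (28.5), with a log2 fold change of -4.54 ± 0.58 and an adjusted p of 9.68e-13 by edgeR and 8.55e-05 by DESeq2. Here 2 of 6 genes were called, both lower, while 3.82% of all genes tested were called and 2.07% were lower. Barcodes under 500 genes were taken as a guide to the RNA free in the suspension, but they may also be shallow cells. In them Ptgds had 0 of 2220558 UMIs in the knockout and 16 of 2233221 (7.16 CPM) in heterozygote 2. Heterozygote 1 held 2 such barcodes and gives no level of its own, and the part of free RNA in the levels above was not tested. Luminal secretory cells had 2, 4 and 27 UMIs, at or below 0.701 CPM in each library.

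**Figure D4:**
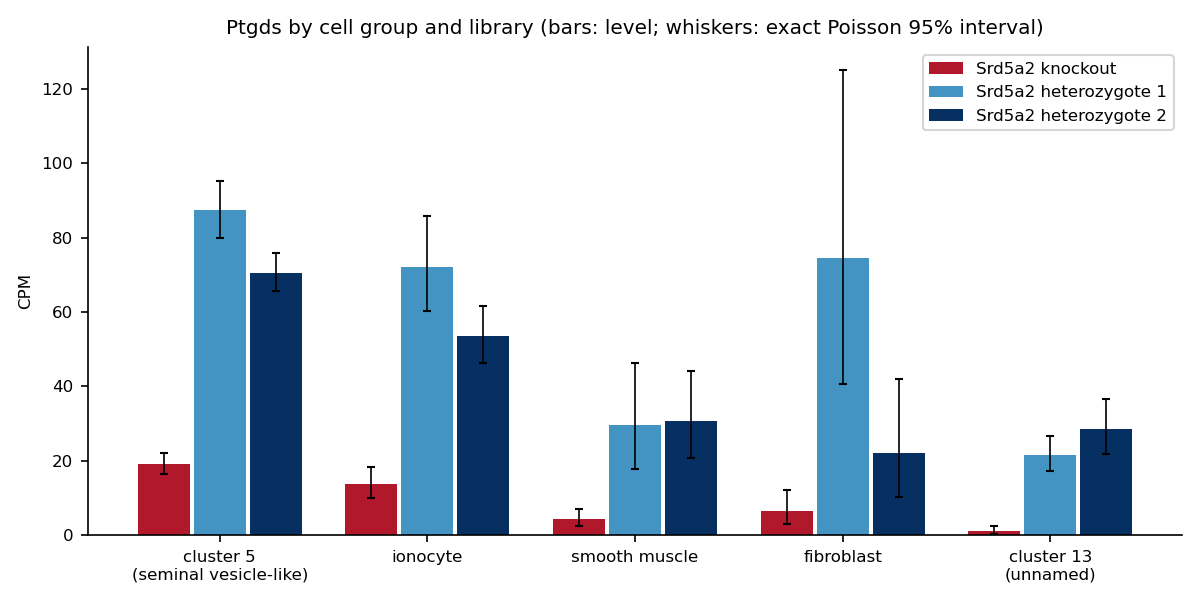
Ptgds in CPM in 5 cell groups, with a bar per library (knockout, heterozygote 1 and heterozygote 2 from left to right) and exact Poisson 95% intervals. The knockout bar is the lowest of the 3 in each group, at 19.1 against 87.3 and 70.6 in cluster 5 and 4.21 against 29.6 and 30.7 in smooth muscle.

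Hpgds, the haematopoietic prostaglandin D synthase, sat in other cells than Ptgds. Macrophages had 360.1 CPM in the knockout, against 338 and 347, from 181, 35 and 80 UMIs, and the 3 intervals overlap. At 1000 UMIs per cell 28.2%, 17.2% and 28.2% of macrophages had a Hpgds UMI (unthinned 65.0%, 58.6% and 49.4%), against 0 of 1237 (up to 0.243%), 0 of 2073 (up to 0.145%) and 0.0572% of luminal secretory cells (unthinned 1.21%, 0.241% and 0.415%). T or NK cells had 5, 2 and 2 UMIs and dendritic cells 2, 2 and 0. In macrophages, which were not fitted, Ptgds had 0 UMIs in all 3 libraries.

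Ptges, the microsomal prostaglandin E synthase, was spread over the epithelium. Ionocytes had 184 CPM in the knockout, against 216 and 206, the highest of the 12 classes by the mean of the libraries. The Svs shares given above for ionocytes stand beside this level too, and their part in it was not tested. Cluster 5, where Ptgds was lower in the knockout, had 230.5 CPM of Ptges, against 215 and 204, a log2 fold change of 0.09 ± 0.29 with an adjusted p of 0.989. Luminal secretory cells had 84.3, against 94.3 and 105, and basal cells 70.8, against 89.4 and 77.3. Within the luminal secretory class cluster 17 stood apart again, with 6.01, against 8.06 and 9.49.

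Over the whole seminal vesicle-like class Ptges had 44.6 in the knockout, against 195 and 189, and a log2 fold change of -1.08 ± 0.31 with an adjusted p of 0.0143. Ptgs1 had 3.40 there, against 18.3 and 20.1, and -1.47 ± 0.31 with an adjusted p of 0.000535. Within cluster 5 neither was called, and for Ptgs1 the fold change was -0.23 ± 0.29 with an adjusted p of 0.942. The differences of these 2 genes and the different cluster makeup of the class cannot be told apart. In cluster 13 Ptges was lower, with a log2 fold change of -1.48 ± 0.40 and an adjusted p of 0.00774 by edgeR (0.965 by DESeq2), being -0.68 against heterozygote 1 alone and -1.98 against heterozygote 2 alone.

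Ptgis, prostacyclin synthase, was the stromal member. Smooth muscle had 187 CPM in the knockout, against 272 and 214, and fibroblasts 145, against 186 and 194. Both classes were lowest in the knockout, and the differences were smaller than their SE: the log2 fold changes were -0.23 ± 0.29 (adjusted p 0.852) and -0.28 ± 0.36 (adjusted p 0.887). At 1000 UMIs per cell a Ptgis UMI was seen in 17.3%, 18.1% and 21.0% of smooth muscle cells and in 15.0%, 14.04% and 13.7% of fibroblasts. Luminal secretory cells gave 0 of 1237 cells (up to 0.243%), against 0.0482% and 0.0572%. Unthinned, the shares were 57.0%, 65.4% and 62.6% of smooth muscle cells and 0.726%, 0.868% and 0.499% of luminal secretory cells. The 3′ end of Ptgis (chr2:167191805-167240604, minus strand, mm10) overlaps the antisense transcript 1110018N20Rik, and Ptger4 overlaps Ttc33 on the other strand, and whether counting used strand is not given in the sources used here.

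Hpgd, the enzyme that starts prostaglandin breakdown, was widespread, and its strongest site was 1 luminal cluster. Cluster 14, marked by Msmb and H2-Q10, had 294 CPM in the knockout, against 653 and 413, from 520, 1891 and 1893 UMIs. The knockout was the lowest of the 3, with a log2 fold change of -0.72 ± 0.35 and an adjusted p of 0.635. Of 4 genes tested in cluster 14, 0 were called by edgeR, with 1 at an unadjusted p under 0.05 and 0 by DESeq2, while 1.01% of all genes were called. In cluster 3 the order was the opposite, with 152 in the knockout, against 109 and 70.8. That difference of 0.86 ± 0.25 on the log2 scale had an adjusted p of 0.0377 by edgeR and 0.641 by DESeq2, and was 0.56 and 1.23 against heterozygotes 1 and 2 alone. It was the 1 gene called of 6 in cluster 3, where 1.69% of all genes were called. Over the whole luminal secretory class the knockout had 120.65, against 147 and 94.0, between the heterozygotes, and a fold change of 0.02 ± 0.30 with an adjusted p of 1.

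Fibroblasts had less Hpgd in the knockout, at 21.1 CPM, against 95.8 and 64.0, from 30, 18 and 26 UMIs. The lone knockout lay below both heterozygotes, and the log2 fold change was -1.74 ± 0.46 with an adjusted p of 0.0134 by edgeR. With Ptgs2, higher, this makes 2 of 6 genes called in fibroblasts, while 1.43% of all genes tested were called. As for Ptgs2, the call was lost with DESeq2 (log2 fold change -1.72, adjusted p 0.999) and without the filter (-1.59, 0.850). The Svs shares given above for fibroblasts stand beside this result too, and their part in it was not tested. Smooth muscle gave no call, with 80.8, against 51.4 and 85.9 (log2 fold change 0.34 ± 0.28, adjusted p 0.723). The effects in the 2 stromal classes differed by -2.00 ± 0.54, with an adjusted p of 0.634. Between luminal secretory and basal cells they differed by 0.93 ± 0.36, with an adjusted p of 0.645, and of 8 genes 0 were called in that contrast, with 1 at an unadjusted p under 0.05 and 0 by DESeq2, against 0.286% of all genes.

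**Figure D5:**
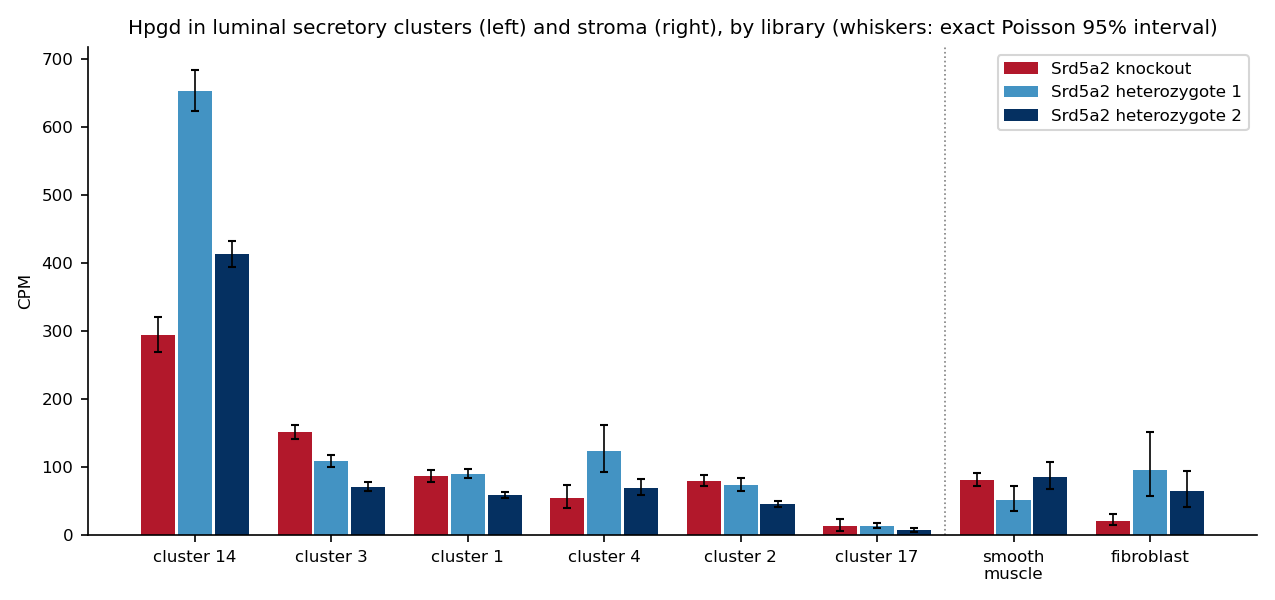
Hpgd in CPM in the 6 luminal secretory clusters (left of the dotted line) and 2 stromal classes, with a bar per library (knockout, heterozygote 1 and heterozygote 2 from left to right) and exact Poisson 95% intervals. Cluster 14 is the tallest group in each library, at 294 against 653 and 413, and fibroblasts are lowest in the knockout.

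Ptger4 was the receptor of immune cells and of cluster 10. Dendritic cells had 178 CPM in the knockout, against 139 and 162, T or NK cells 107, against 92.1 and 104, and macrophages 147, against 38.7 and 143, the 38.7 resting on 4 UMIs. Cluster 10 had 91.5, against 61.9 and 87.4, and basal cells 28.5, against 36.8 and 31.0. No difference of Ptger4 between the genotypes was called in any of the 8 classes, and its fold change in basal cells was -0.13 ± 0.25 (adjusted p 0.942). Endothelial cells had 9.05, against 22.9 and 26.4, from 10, 7 and 7 UMIs. Ptger4 did not pass the filter there, where 0 of 4 genes were called, with 0 at an unadjusted p under 0.05 and 0 by DESeq2, and 1.96% of all genes were.

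The rest of the pathway was read from a list of 36 genes, of which 28 could be tested in at least 1 class. The transporter Slco2a1, which carries prostaglandins into cells for breakdown, had 336 CPM in knockout basal cells, against 330.3 and 254. In the seminal vesicle-like class it had 35.6, against 190 and 228, but within cluster 5 the log2 fold change was -0.41 ± 0.29 with an adjusted p of 0.759. Among luminal secretory clusters Slco2a1 went both ways by edgeR: it was higher in knockout cluster 1 (1.69 ± 0.33, adjusted p 0.000176, and 0.247 by DESeq2) and lower in cluster 14 (-2.85 ± 0.49, adjusted p 6.06e-06, with none given by DESeq2). In luminal secretory cells 0 of 28 genes were higher and 2 lower by edgeR, and DESeq2 called 0. Of all genes tested in that class 2.09% were called by edgeR. Ptger3, which encodes the EP3 receptor for prostaglandin E2, had 25.1, against 51.2 and 52.6, and the log2 fold change was -1.02 ± 0.31 with an adjusted p of 0.0485. It was lower in clusters 1, 2 and 3 as well (log2 fold changes of -1.36, -1.53 and -0.995), at adjusted p of 0.00492, 7.64e-06 and 0.0139 by edgeR and 0.0635, 0.00746 and 0.238 by DESeq2, where 2.73%, 2.61% and 1.69% of all genes were called. Anxa1, annexin A1, an inhibitor of phospholipase A2 activity, had 16.3, against 46.7 and 22.6 (-1.08 ± 0.31, adjusted p 0.0343). No single luminal secretory cluster tested gave a call for Anxa1, and its log2 fold change ran between -1.70 in cluster 3 and 1.38 in cluster 4. The makeup of the class differed between libraries, with 19.7% of its cells in cluster 4 in the knockout, against 5.36% and 26.004%, and cannot be told apart from a difference within the clusters.

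In basal cells 1 of 21 listed genes was higher, the organic anion transporter Slco3a1, at 52.2, against 25.4 and 27.1 (1.09 ± 0.24). Its adjusted p was 0.0318 by edgeR, which called 0.900% of all genes tested in basal cells. DESeq2 called 0 of the list. In the seminal vesicle-like class 2 of 22 were higher (Plaat3 and Ptgfrn) and 4 lower (Mgll, Slco2a1, Slco3a1 and Anxa1), with the different cluster makeup given above. Of all genes tested in that class 10.4% were called by edgeR. DESeq2 called 4 of the list, but not Ptgfrn (adjusted p 0.263) or Anxa1 (0.33). Within cluster 5, 1 of 21 was higher (Plaat3, 1.55 ± 0.31) and 2 lower (Mgll, which releases arachidonic acid from an endocannabinoid, at -2.36 ± 0.38, and Slco3a1 at -1.41 ± 0.30). DESeq2 called 1 of the list in cluster 5, and edgeR called 2.40% of all genes there. Of 20 in cluster 13, 1 was higher (Akr1b8, 2.32 ± 0.38) and 2 lower (Mgll and Slco2a1). DESeq2 called 2 of the list in cluster 13, and edgeR called 3.82% of all genes there. In fibroblasts (10 tested), smooth muscle (20), endothelial cells (9), ionocytes (21) and luminal proximal cells (22) none was called by edgeR or by DESeq2. At an unadjusted p under 0.05 by edgeR there were 0 in fibroblasts, 1 in smooth muscle, 3 in endothelial cells, 3 in ionocytes and 0 in luminal proximal cells. The median log2 fold change of the listed genes was -0.07 in luminal secretory cells, against -0.02 over all genes, and -0.23 in smooth muscle, against -0.02.

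Receptors for the products of Ptgds, Hpgds and Ptgis were close to the detection limit. Over all named classes and libraries the prostaglandin D2 receptors Ptgdr and Ptgdr2 had 4 and 2 UMIs, the prostacyclin receptor Ptgir 36, the prostaglandin F receptor Ptgfr 13, and Ptger2 (EP2) 16. Ptger1 (EP1) had 219 and the thromboxane receptor Tbxa2r 78. Thromboxane synthase Tbxas1 had 47.8 CPM in knockout macrophages, against 58.0 and 34.7. A low count limits what was seen at this depth and does not show that a receptor is absent.

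Across 28 sums of a class in a library (those with at least 50 cells), the genes whose level followed each member most closely were found among 14546 genes by Pearson's r of log2(CPM + 1). The sums share libraries and depth, so r is a description. Ptgis was followed by Runx1t1 (0.976), Tmod2 (0.973) and Map1a (0.972), Hpgds by Ccr1 (0.936), Bcl2a1b (0.935) and Ms4a6d (0.935), and Ptger4 by Crlf3 (0.942), Rhog (0.934) and Cotl1 (0.929). Ptgds was followed by Gstm5 (0.910), Emx2 (0.870) and Anxa9 (0.867), and Ptgs2 by Zfp385a (0.879), Arhgap10 (0.862) and Fam49a (0.862). Ptges went with Chd9 (0.885), Sgms2 (0.866) and Tc2n (0.846), Hpgd with Mrpl14 (0.859) and 4931406C07Rik (0.858), and Ptgs1 with Smagp (0.852), Sec23b (0.845) and Tspan13 (0.830). Between members the highest r was 0.80, for Hpgds and Ptger4, and the lowest -0.72, for Hpgd and Ptger4.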

How the data were processed

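The authors deposited raw UMI counts per gene and barcode for 3 libraries. The submitters' processing notes name Cell Ranger 3.1.0 and mm10, and neither cell calling nor strand setting is given in the sources used here. The knockout matrix held 129015041 UMIs in 13273 barcodes, that of heterozygote 1 held 47601747 in 5000 and that of heterozygote 2 held 100801564 in 13866. A barcode counted as a cell from 500 genes upward if mitochondrial genes took no more than 15% of its UMIs, which left 9983, 4718 and 10587. Doublets were called from the share of simulated doublets among 30 neighbours at a rate of 0.8% per 1000 barcodes, ties included, and 1137, 216 and 1272 were removed.

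Cells of all libraries were clustered together without batch correction (2000 variable genes, 30 components, 20 neighbours, Leiden resolution 1.0, igraph 0.11.9). The 8 genes and 36 further pathway genes took no part in the clustering. Neither did 83 genes taken as abundant in free RNA (0.1% or more of UMIs where fewer than 500 genes were seen). A class name required 3 or more of its markers, each with a log2 fold of 1.0 or more and found in 25% of the cluster's cells.

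Counts were summed per class and library and tested with edgeR 4.0.16 (filterByExpr, TMM, quasi-likelihood). With 1 knockout and 2 heterozygotes there is 1 residual degree of freedom, so the lone knockout is assumed to vary like the heterozygotes. The quasi-likelihood test then draws the spread of a gene largely from all genes, so a gene whose 2 heterozygotes differ can still be called. The SE is the log2 fold change over the square root of F. Fold changes against a single heterozygote use a prior count of 2 and have no test. Differences of effects between classes had library as a block. The fit was first tested on simulated counts. DESeq2 1.42.0 and the other alternatives stand at the end; ionocytes and single clusters were added after the data were seen. Intervals are at 95%, a count of 0 allows 3, and both cover counting error only.

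The 8 genes and all lists were chosen with earlier results of these data known. Named genes are the 8, the listed pathway genes that were called or are receptors or synthases, and the 3 genes most like each of the 8, of which 1 is not reported here.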

Additional observations from a re-analysis of the deposited data

How the results depend on the processing

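Of 550 fold changes of the 8 genes recomputed under the alternatives, 466 kept direction and side of the threshold. Of 58 results 11 were calls, and 0 of these calls reversed under the alternatives run. Not every call held: of the values recomputed for the calls, 69 stayed the same, 15 were labelled weaker and 7 moved. No paired analysis was possible because the groups share fewer than 2 replicate numbers. The number of genes called in basal cells (105) was 324 with median-ratio size factors, 39 with DESeq2, 275 without the filter on low counts, 0 after subtraction of shared RNA, 254 at resolution 2.0, 254 with doublets kept, 310 in cells of at least 2466 UMIs and 370 with cells assigned singly from markers. Endothelial cells (108) gave 16 with DESeq2, 31 after subtraction, 48 at resolution 2.0 and 2883 by single assignment. Fibroblasts (97) gave 15 with DESeq2, 0 without the filter, 0 after subtraction, 260 with doublets and 2287 by single assignment. Ionocytes (192) gave 14 with DESeq2, 0 without the filter, 0 after subtraction and 70 by single assignment. Luminal proximal cells (0) gave 12 with DESeq2, 228 without the filter, 7 after subtraction, 12 at resolution 2.0, 6 with doublets and 309 by single assignment. Luminal secretory cells (337) gave 102 with DESeq2, seminal vesicle-like cells (1295) 491 with DESeq2, 591 at resolution 2.0 and 81 by single assignment, and smooth muscle (306) 37 with DESeq2, 188 after subtraction and 574 by single assignment. The count of the 8 genes called moved in basal cells (0) to 1 with median-ratio factors and 2 by single assignment, in fibroblasts (2) to 0 with DESeq2, 0 without the filter, 0 after subtraction and 5 by single assignment, and in ionocytes (1) to 0 without the filter, 0 after subtraction and 0 by single assignment. Single assignment gave 3 in endothelial (0), 1 in luminal proximal (0), 1 in seminal vesicle-like (3) and 2 in smooth muscle (1). Luminal secretory cells (0) gave 1 after subtraction (Ptgs2) and 1 with another seed (Ptgds). Differences of effects, luminal secretory against basal (0), gave 1 after subtraction and 1 by single assignment, and fibroblast against smooth muscle (0) gave 2 without the filter, 2 at resolution 2.0, 2 with doublets and 3 by single assignment.

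Log2 fold changes that reversed were uncalled. By single assignment Ptges became 0.18 in basal cells, -0.70 in endothelial cells and 0.14 in ionocytes, Ptger4 0.34 in basal cells and 0.0117 in smooth muscle, Ptgs2 1.42 in endothelial cells, Ptgis 1.70 in fibroblasts, 0.74 in luminal secretory cells and 0.18 in smooth muscle, and Hpgd -0.0387 in luminal secretory cells. With doublets kept, Ptgs2 became 0.95 in endothelial cells and 1.17 in ionocytes, Ptges -0.35 in endothelial cells and 0.0337 in fibroblasts, Ptgis 0.0864 in luminal secretory and 0.11 in seminal vesicle-like cells, and Ptger4 0.35 in smooth muscle. Without the filter, Ptges became 0.0364 in fibroblasts, Ptgs1 -0.048 and Hpgd -0.0255 in luminal secretory cells, and Ptger4 0.0531 in smooth muscle, where DESeq2 gave 0.0094. Subtraction gave Ptges 0.23 in fibroblasts and Ptgs1 1.496 in ionocytes, cells of at least 2466 UMIs gave Ptgs2 0.0104 and resolution 2.0 gave Ptger4 0.0347 in luminal secretory cells. Leaving out each heterozygote gave, with no test, these ranges: endothelial Ptgs2 -0.93 to 1.58 and Hpgd -0.75 to 1.20; ionocyte Hpgd -0.0302 to 0.21; luminal proximal Ptgs2 -0.0346 to 1.02 and Ptgds -2.45 to 0.25; luminal secretory Ptgs1 -0.11 to 0.14, Ptgs2 -0.21 to 0.0762, Ptgis -0.54 to 0.17, Hpgd -0.31 to 0.45 and Ptger4 -0.33 to 0.0486; seminal vesicle-like Ptgis -0.9997 to 0.39; smooth muscle Ptgs2 -0.52 to 0.0613 and Ptger4 -0.14 to 0.14. The causes were not tested. Subtraction of shared RNA says nothing about ionocytes, where it took 100% of UMIs as shared in every library, nor about fibroblasts, where it took 23.2% in the knockout, against 100% and 43.2%, endothelial cells, with 67.0%, against 100% and 52.6%, or luminal proximal cells, with 11.96%, against 8.02% and 100%. With 1 knockout library, genotype and library cannot be told apart, macrophages could not be fitted (29 cells in heterozygote 1), and fibroblasts and endothelial cells had too few cells of at least 2466 UMIs.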
